A study of Homo sapiens with 6 samples.

Results

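The 60 genes described here encode nucleolar proteins that make, fold, modify and cut the ribosomal RNA precursor and assemble it into ribosomal subunits. They were chosen by symbol for their role, with no rule on measured values but with earlier results of these data known, and all 60 were found among the 19785 protein-coding genes with an annotated start site. Myc chromatin immunoprecipitation sequencing (ChIP-seq) had been done in MDA-MB-231, a human triple-negative breast cancer line (the parental line), and in a derivative in which TXNIP was knocked out with CRISPR/Cas9 (TKO), to ask how loss of TXNIP, an arrestin family protein that restrains glucose uptake, affects where Myc sits on the genome. There were 2 Myc libraries per line, all made with antibody D3N8F from cells in the same DMEM-based medium with serum, and 2 input samples that served as background. Knockout clones were isolated from single cells, so a difference between the lines may also be one between a clone and its parent population. The study calls the libraries of a line biological replicates, while the labels do not say that they came from separate cultures, and the peak lists hold no measure of TXNIP itself.

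Ribosomes are begun in the nucleolus, where RNA polymerase I copies the ribosomal DNA into one long precursor. Small nucleolar RNPs (snoRNPs) modify that precursor, the small-subunit processome cuts and folds its 5′ part into the future 40S subunit, and a separate set of factors builds the 60S subunit from the rest. Myc, which binds DNA as a partner of Max and prefers the E-box CACGTG, is known as an activator of this whole programme, and many of these genes are textbook Myc targets. By role, the list held 8 genes of nucleolar organisation and RNA polymerase I transcription, 8 of the snoRNP core, 20 of the small-subunit processome, 8 of late 40S maturation and 16 of 60S assembly.

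A gene was called bound in a library when the summit of a Myc peak lay within 1 kb of a start site of one of its basic protein-coding transcripts. The lists were of very unequal length, with 3720 and 5719 peaks in parental replicates 1 and 2 and 27213 and 25887 in TKO, although the recovered depth was higher in the parental line (26.4 and 22.2 M reads) than in TKO (19.9 and 13.0 M). A peak that is not listed did not pass the peak caller's threshold, which does not show that Myc was absent.

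Sequences near the summits are shown for the genes where the preferred motif of Myc recurred in every library. The lines below give an E-box of each gene whose promoter peak had one within 50 bp of the summit in every library, which held for 10 of the 60 genes. RRS1 is the gene of that group whose sequence is not printed. Bases are from GRCh37, the same assembly as hg19, read 5′ to 3′ along the gene's own strand, and capitals mark the E-box.
GNL3, chr3:52720042-52720071: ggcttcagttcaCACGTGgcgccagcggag
NPM1, chr5:170815572-170815600: tgggagCACGTGgttgcCACGTGgttggg
NCL upstream site, chr2:232328551-232328580: ctggcaagccgaCACGTGgtgggccccgga
NCL downstream site, chr2:232328494-232328523: ctgtgtttcgggCACGTGgtggcctaccag
BYSL, chr6:41889253-41889282: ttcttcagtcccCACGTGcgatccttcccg
GAR1, chr4:110736937-110736966: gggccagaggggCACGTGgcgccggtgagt
NOP56, chr20:2632510-2632539: gcggaggagcaaCACGTGgcccagcaaaag
LYAR, chr4:4291795-4291824: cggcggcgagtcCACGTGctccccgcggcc
TCOF1, chr5:149737729-149737758: taagtctcccgcCACGTGgctaggctctgc
IMP4, chr2:131100473-131100502: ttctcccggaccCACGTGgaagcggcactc

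NPM1 carried 2 E-boxes separated by 5 bases, about 36 and 24 bp upstream of the nearest of its 11 start sites. All 4 summits lay within 5.5 bp of the middle of one of them, in an intron of the gene. Distances between an E-box and a start site, here and below, are from the middle of the E-box. That middle falls between bases, and the distance was rounded to an even number. NCL, with 10 start sites, had 3 E-boxes near its summits, and all 4 summits lay in a UTR, inside the gene. The printed copies were 57 bp apart. The upstream copy was within 50 bp of the summit in parental replicate 1 and both TKO libraries, and the downstream copy in both parental libraries and TKO replicate 1. The remaining copy, 80 bp upstream of the nearest start site, was that close to the summit in parental replicate 2 alone. The E-boxes of GNL3, IMP4, BYSL and GAR1 lay at the beginning of the transcribed part, 8, 18, 30 and 34 bp downstream of a start site. Those of NOP56 and TCOF1 were far from it, 754 bp upstream and 434 bp downstream. Across all summits of the genes outside chromosome 8, 34 different E-boxes at 30 genes lay within 50 bp, and 21 of the 34 had a C or G on both sides.

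Most of the 60 genes already had a Myc peak at the promoter in the parental line. A promoter peak was listed for 54 genes in parental replicate 1 and for 46 in parental replicate 2, where 12.2% and 12.9% of all protein-coding genes had one. In TKO all 60 genes were bound in both libraries, against 49.1% and 49.7% of all genes. The count was 50.0 ± 5.66 (SD, n = 2) in the parental line and 60 ± 0 (n = 2) in TKO, a ratio of 1.2, and the counts did not overlap. An exact two-sided permutation test of these 4 values gave p = 0.333, which is the smallest p that 2 libraries against 2 allow. Every such test reported below gave the same p, and comparisons given without a p were not tested.

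**Figure D1:**
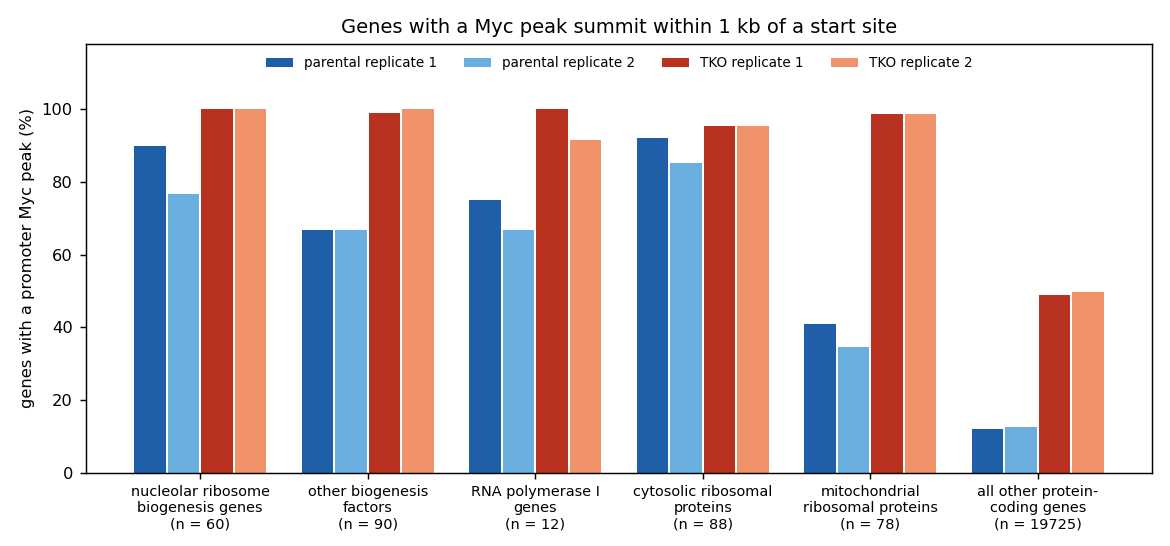
Percentage of genes (vertical axis) with a promoter Myc peak in each of the 4 libraries (bars), for the 60 nucleolar ribosome biogenesis genes and 5 other lists of protein-coding genes (horizontal axis, with the number of genes). The 60 genes stand at 90% and 76.7% in the parental line and at 100% in both TKO libraries, while all other protein-coding genes stand at 11.98% and 12.7% in the parental line and 49.0% and 49.6% in TKO.

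The gain in bound genes depended on the length of the lists. When each list was cut to its top 3720 peaks by fold, 54 and 43 of the 60 genes were bound in the parental line and 51 and 50 in TKO, so the ranges overlapped. The same cut by −log10 p, an alternative chosen after seeing the data, left 54 and 44 in the parental line and 54 and 55 in TKO. At equal list length the lines therefore differed by less than the parental replicates did.

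**Figure D2:**
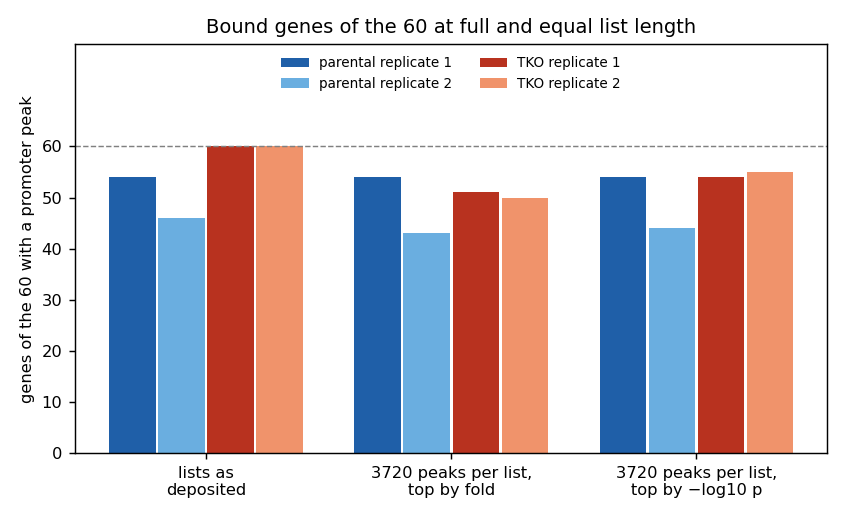
Number of the 60 genes with a promoter peak (vertical axis, dashed line at 60) in each library, with the peak lists as deposited and with each list cut to its top 3720 peaks. As deposited, both TKO libraries reach 60 and the parental libraries 54 and 46. At equal length the TKO bars stand between 50 and 55 and the parental bars between 43 and 54.

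Gene by gene, 46 of the 60 (76.7%) were bound in every library, where 9.32% of all genes were. Another 6 had a peak in each TKO library but in neither parental one, a class that held 29.8% of all genes. The remaining 8 had a peak in each TKO library and in parental replicate 1 only, and none was bound in parental replicate 2 only. Without parental replicate 1 the count of genes bound only in TKO was therefore 14 in place of 6.

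All 8 late 40S genes were bound in every library. So were 7 of the 8 snoRNP genes, 12 of 16 60S assembly genes and 14 of 20 processome genes. The group of nucleolar organisation and RNA polymerase I transcription had the smallest share, 5 of 8.

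Reads stacked at a summit were scaled to reads per 1 M reads of the recovered depth (RPM). Among the nucleolar organisers, NPM1, the abundant histone and ribosome chaperone nucleophosmin, had 2.80 and 2.66 RPM at its summit in parental replicates 1 and 2 and 8.07 and 8.67 in TKO replicates 1 and 2. These rest on 74, 59, 161 and 113 reads. NCL, which encodes the nucleolar RNA-binding protein nucleolin, had 2.12 and 2.75 RPM in the parental line and 6.92 and 6.75 in TKO. For both genes the TKO libraries lay well above the parental ones and close to each other. TCOF1, whose product treacle links RNA polymerase I to rRNA processing, was lower, with 1.44 and 1.17 RPM in the parental line and 3.86 and 3.45 in TKO. LYAR, a nucleolar zinc-finger protein, had 2.01 and 1.62 in the parental line and 5.16 and 5.60 in TKO. NOLC1, the gene of a nucleolar phosphoprotein that accompanies snoRNPs, had 2.84 and 2.43 RPM in the parental line and 5.46 and 7.44 in TKO.

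The other 3 genes of this group were listed only in TKO. UBTF encodes UBF, the protein that coats active ribosomal DNA, and RRN3 encodes TIF-IA, the factor that makes RNA polymerase I competent to start. UBTF was among the weakest of the 60 genes, with 1.2 and 1.07 RPM from 24 and 14 reads, and its strongest peak was 120 bp downstream of a start site in TKO replicate 1 and 57 bp upstream in TKO replicate 2. RRN3 had 2.11 and 2.22 RPM and stood at the 95.1 and 92.7 percentile of its lists by fold, meaning that this share of the peaks in the library had the same or a lower fold. RRN3 has near-identical copies on chromosome 16, and how reads matching several places were treated is not given in the sources used here, so its values are uncertain. NPM3, a histone chaperone of the nucleophosmin family, had 2.36 and 2.68 RPM.

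The snoRNP core genes were bound throughout, except FBL in parental replicate 2. FBL encodes fibrillarin, the methyltransferase of box C/D snoRNPs, and had 1.67 RPM in parental replicate 1 and 3.01 and 3.45 in TKO. Its partners in the same particle, NOP56 and NOP58, had peaks in all 4 libraries. NOP58 had 2.54 and 2.61 RPM in the parental line and 6.62 and 7.59 in TKO, with the summit 39 to 57 bp downstream of the start site in every library. NOP56 had 1.97 and 1.80 in the parental line and 4.26 and 5.52 in TKO. Its summit lay outside the gene, 756 to 786 bp upstream of the only basic start site, at the E-box printed above.

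In the box H/ACA particle, which converts uridine to pseudouridine, DKC1 encodes the enzyme, dyskerin. DKC1 had 0.984 and 1.85 RPM in the parental line and 5.16 and 4.83 in TKO. In parental replicate 1 its strongest peak was 15 bp downstream of a start site. In the other 3 libraries it lay inside the first part of the gene, 556 to 620 bp downstream, within 50 bp of an E-box 578 bp from the start site. GAR1, a small subunit of the same particle, had 2.91 and 2.25 RPM in the parental line and 6.02 and 6.83 in TKO.

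The processome, the largest group, held the largest number of genes that parental replicate 2 lacked, though not the largest share. That library bound 14 of 20 processome genes, 12 of 16 of 60S assembly and 5 of 8 of nucleolar organisation and RNA polymerase I transcription. IMP3, UTP15, EMG1, UTP20 and RCL1 were each bound in parental replicate 1 and both TKO libraries. In parental replicate 1 these were weak peaks, at percentiles from 0.161 for UTP15 to 38.2 for IMP3. The 3 such genes outside the processome were FBL, RRP1 and RRP1B, and they stood at 71.2, 86.7 and 92.0. UTP18, a WD-repeat processome protein, was bound only in TKO, with 1.80 and 2.53 RPM and a summit 290 and 326 bp upstream of its start site. IMP4, which helps join the U3 snoRNA to the precursor, had 1.89 and 1.85 RPM in the parental line and 4.61 and 7.44 in TKO, a wide gap between the TKO replicates. NOP14, a scaffold of the processome, had 2.12 and 2.57 in the parental line and 5.62 and 4.37 in TKO.

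Late 40S maturation contained some of the strongest sites. BYSL, the bystin gene, had 4.05 and 3.61 RPM in the parental line and 8.87 and 9.89 in TKO. PNO1, the partner of the NOB1 nuclease that makes the last cut of 18S rRNA, had 2.16 and 2.34 in the parental line and 4.76 and 4.99 in TKO.

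In 60S assembly, GNL3 had the highest summit of all 60 genes in both TKO libraries. It encodes nucleostemin, a nucleolar GTPase, and had 4.05 and 3.97 RPM in the parental line and 9.17 and 9.97 in TKO, from 107, 88, 183 and 130 reads. The exact Poisson 95% interval, which covers counting error only, was 87.7 to 129 reads in parental replicate 1 and 157 to 212 in TKO replicate 1. GNL3 ranked 91 and 33 among the peaks of its parental lists by fold and 12 and 14 among those of the TKO lists. Within 60S assembly NOP16 came next, with 3.75 and 3.20 RPM in the parental line and 7.82 and 8.21 in TKO. RRS1, which brings the 5S RNP to the early 60S particle, had 2.16 and 1.94 in the parental line and 5.41 and 5.68 in TKO. MRTO4, which holds the place of the stalk protein, had 1.63 and 1.49 in the parental line and 4.91 and 6.29 in TKO.

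The PeBoW complex, made of PES1, BOP1 and WDR12, splits across the classes. PES1 and WDR12 were bound in every library, with 1.55 and 1.40 RPM for PES1 in the parental line and 4.26 and 4.07 in TKO. WDR12 had 2.16 and 2.07 in the parental line and 5.46 and 4.76 in TKO. BOP1 was listed only in TKO, with 1.2 and 1.53 RPM from 24 and 20 reads. NOL9, a polynucleotide kinase of precursor processing, was likewise listed only in TKO, with 1.85 and 2.38 RPM. Its fold was nevertheless high, at the 96.7 and 97.7 percentile, over a local background of 1.2 and 1.09 times the genome background. Across the 6 genes without a parental peak, TKO summits held 1.2 to 2.36 RPM in replicate 1 and 1.07 to 2.68 in replicate 2. The listed genes bound in every library held at least 2.81 and 2.61. The ranges of these groups did not overlap in replicate 1 and overlapped slightly in replicate 2. The 8 genes with 1 parental peak held 1.45 to 3.61 RPM in TKO replicate 1 and 1.30 to 4.22 in TKO replicate 2. Their ranges overlapped those of both other groups in each replicate. Among the other 1797 protein-coding genes bound in every library, TKO summits went down to 0.602 and 0.844 RPM.

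**Figure D3:**
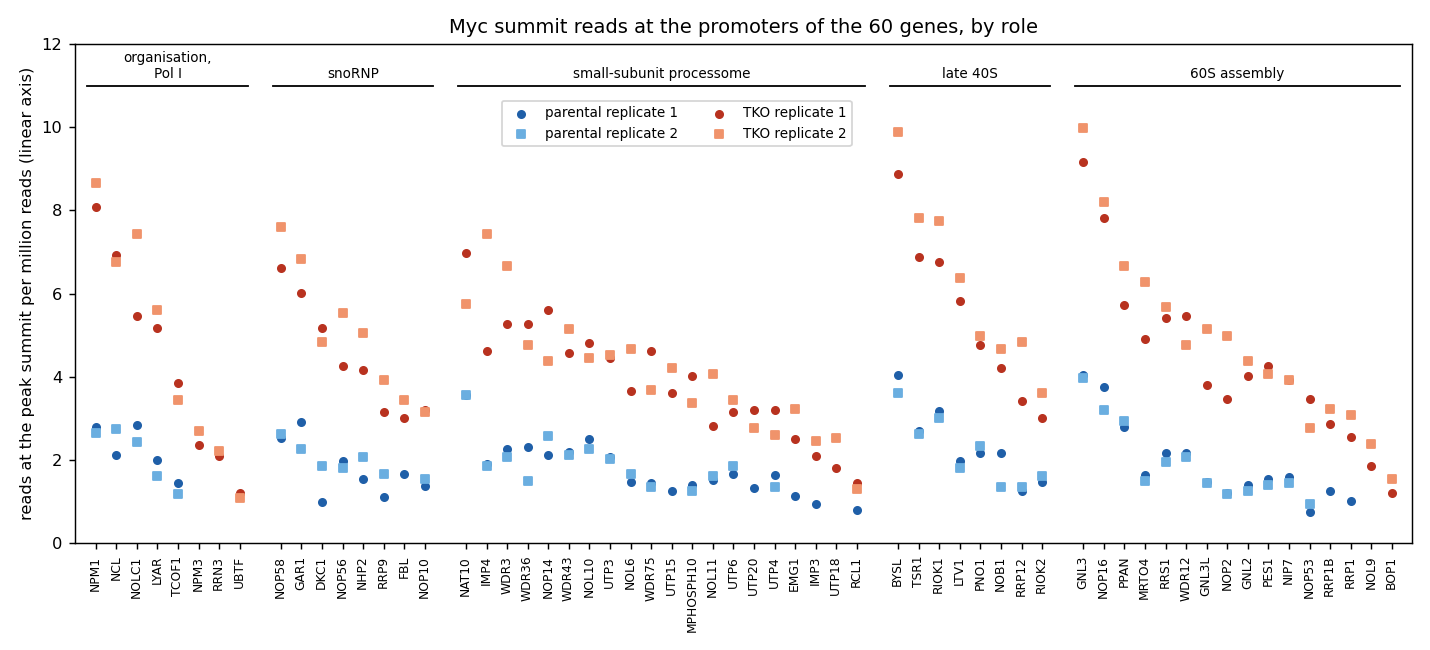
Summit reads of the promoter peak, in RPM (vertical axis, linear) for each of the 60 genes (horizontal axis), grouped by role and ordered within a role by the TKO mean. Blue points are the parental line and red points TKO, with circles for replicate 1 and squares for replicate 2. In all 46 genes bound in every library both parental points lie below both TKO points, and 14 genes lack 1 or both parental points.

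The 46 genes bound in every library had a median of 1.99 and 1.85 summit RPM in the parental line and of 4.69 and 4.99 in TKO. The mean was 1.92 ± 0.0981 (SD, n = 2) in the parental line and 4.84 ± 0.211 (n = 2) in TKO, a ratio of 2.52 that was larger than the spread between replicates (exact permutation p = 0.333). Both TKO values lay above both parental values in 46 of 46 genes, but so they did in 99% of all genes bound in every library. The median TKO to parental ratio of single genes was 2.59 for the 46 and 2.56 for the other 1797 genes. Within the 46 it ran from 1.79 for NAT10, an RNA acetyltransferase, to 3.65 for NOP53, a 60S factor. NOP53 had 0.757 and 0.947 RPM in the parental line, from 20 and 21 reads, and 3.46 and 2.76 in TKO. Its parental summits lay 103 and 71 bp upstream of the start site and its TKO summits 143 and 139 bp downstream. The NOP53 ratio therefore does not compare the same position. NAT10 had 3.56 RPM in both parental libraries and 6.97 and 5.75 in TKO.

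The ratio depends on fragment length. The inferred extension of reads, the narrowest peak of a list, was 140 and 151 bp for the parental libraries and 182 and 201 bp for TKO, and a longer extension places more reads over a summit. Scaling summit reads by extension length reduced the ratio of 2.52 to 1.91. No spike-in was used, so a difference in how well the precipitation worked and a difference in Myc occupancy cannot be told apart.

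Promoter peaks of the 46 genes were also wider in TKO. The median width was 351 and 376 bp in the parental line and 931 and 811 bp in TKO. Their ratio was 2.40, with an exact permutation p of 0.333. Width also depends on the extension of reads, which was longer in TKO, and was not rescaled for it. Both TKO peaks were wider than both parental peaks in 45 of 46 genes, the exception being RIOK2, a late 40S kinase. The same held for 98.6% of all genes bound in every library. The widest promoter peak belonged to NOP56, where the parental lists had 2 promoter peaks and the TKO lists a single peak of 1904 and 1770 bp.

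By rank within a library the 60 genes stood high, and higher in TKO with the lists as deposited. The median percentile of the 46 genes was 85.1 and 80.5 in the parental line and 98.7 and 98.4 in TKO, a difference of 15.8 points (exact permutation p = 0.333). The other genes bound in every library moved as well, from medians of 62.6 and 62.8 to 94.98 and 94.6. A percentile depends on the length of its list. At equal numbers of peaks by fold the difference was 8.78 points, over the 39 genes then still bound in every library. The medians were then 90.7 and 74.2 in the parental line and 92.0 and 90.5 in TKO, so the lines overlapped and the parental replicates lay farther apart than the lines did. Of the 46 genes, 39 had a higher percentile in both TKO than in both parental libraries, against 83.2% of all genes bound in every library. Of the 60 genes, 42 lay in the top 5% of peaks in each TKO library, which is 70.0%, where 12.3% and 11.9% of all bound genes did. In the parental lists 12 of 54 (22.2%) and 12 of 46 (26.1%) did, against 6.70% and 8.55% of all bound genes.

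The 10 highest genes by parental percentile were GNL3, NOP16, NCL, GAR1, RRS1, PNO1, NOP58, MRTO4, NPM1 and NOP14. Their mean percentile over both parental lists ran from 98.5 for GNL3 down to 95.1 for NOP14, and in TKO each of them was at 98.79 or above on average. By percentile, though not clearly by reads, the order of the genes agreed better within a line than between lines. Across the 46 genes, Spearman's rho of the percentile was 0.817 between the parental libraries and 0.835 between the TKO libraries, and 0.482 to 0.676 across lines. For RPM it was 0.826 and 0.817 within the lines and 0.736 to 0.821 across them. These are descriptions across genes, which share libraries and input.

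At the top of the TKO lists the genes behaved like other genes of the same rank. Where the lower of both TKO percentiles was above 99, 13 of 13 of the 60 genes and 98.3% of 180 other genes were bound in both parental libraries. Between 95 and 99 the shares were 84.0% of 25 and 82.5% of 656. Between 90 and 95, 5 of 6 were, against 54.0% of 693 other genes. Between 50 and 90 they were 40% of 15 and 15.1% of 4133.

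Fold divides summit reads by local input background, and for some genes reads and fold parted. NOL11, a processome gene, had 2.81 and 4.07 RPM in TKO but stood only at the 49.2 and 70.0 percentile by fold. The local background at its summit was 7.20 and 7.06 times the genome background. UTP15 had 3.61 and 4.22 RPM at percentiles of 60.2 and 77.5, over a background of 8.40 and 6.52. The medians over the 60 genes were 3.001 and 3.21.

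Summits sat close to the nearest start site of their gene, which for genes with several, such as NPM1 and NCL, can lie inside the gene. The median distance was 36.0 and 35.5 bp for the 54 and 46 genes bound in the parental libraries and 49.5 and 50.5 bp for the 60 genes in TKO, where all bound genes had medians of 108 and 108 bp in the parental line and 150 and 146 bp in TKO. For the 46 genes bound in every library the distance was 8.25 bp greater in TKO (exact permutation p = 0.333). This fell to 4.75 bp without TKO replicate 1, and it was 13 bp with the start sites of every transcript. The other genes bound in every library also had greater distances in TKO, with medians of 106 and 107 bp in the parental line and 115 and 111 bp in TKO. Among the 60 genes, summits of 41 of 54 and 34 of 46 bound genes in the parental line lay within 100 bp of a start site. In TKO those of 43 and 46 of 60 did. These are 75.9%, 73.9%, 71.7% and 76.7%, where the shares of all bound genes were 47.8%, 47.8%, 37.9% and 39.2%. Distant summits recurred in all 4 libraries at NOP56, TCOF1 and RIOK2 and in 3 at DKC1. Others did not, such as that of NOLC1, which was 376 bp downstream in parental replicate 1 and within 107 bp in the other libraries.

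With direction taken into account, the median summit of the 46 genes was 5 bp upstream of the start site and exactly at it in the parental libraries, and 32 bp downstream in each TKO library. The other genes bound in every library had medians of 40 and 49 bp upstream in the parental line and 41 and 37 bp upstream in TKO. Single genes did not all follow. Both TKO summits lay downstream of both parental summits in 14 of the 46, against 21.1% of all genes bound in every library, and upstream of both in 5, against 19.6%. The exact permutation test of the library medians gave p = 0.333 (n = 2 per line). The summits of a gene differed by a median of 28.5 bp between the parental replicates, 25 bp between the TKO replicates and 30.5 to 36.5 bp across lines.

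**Figure D4:**
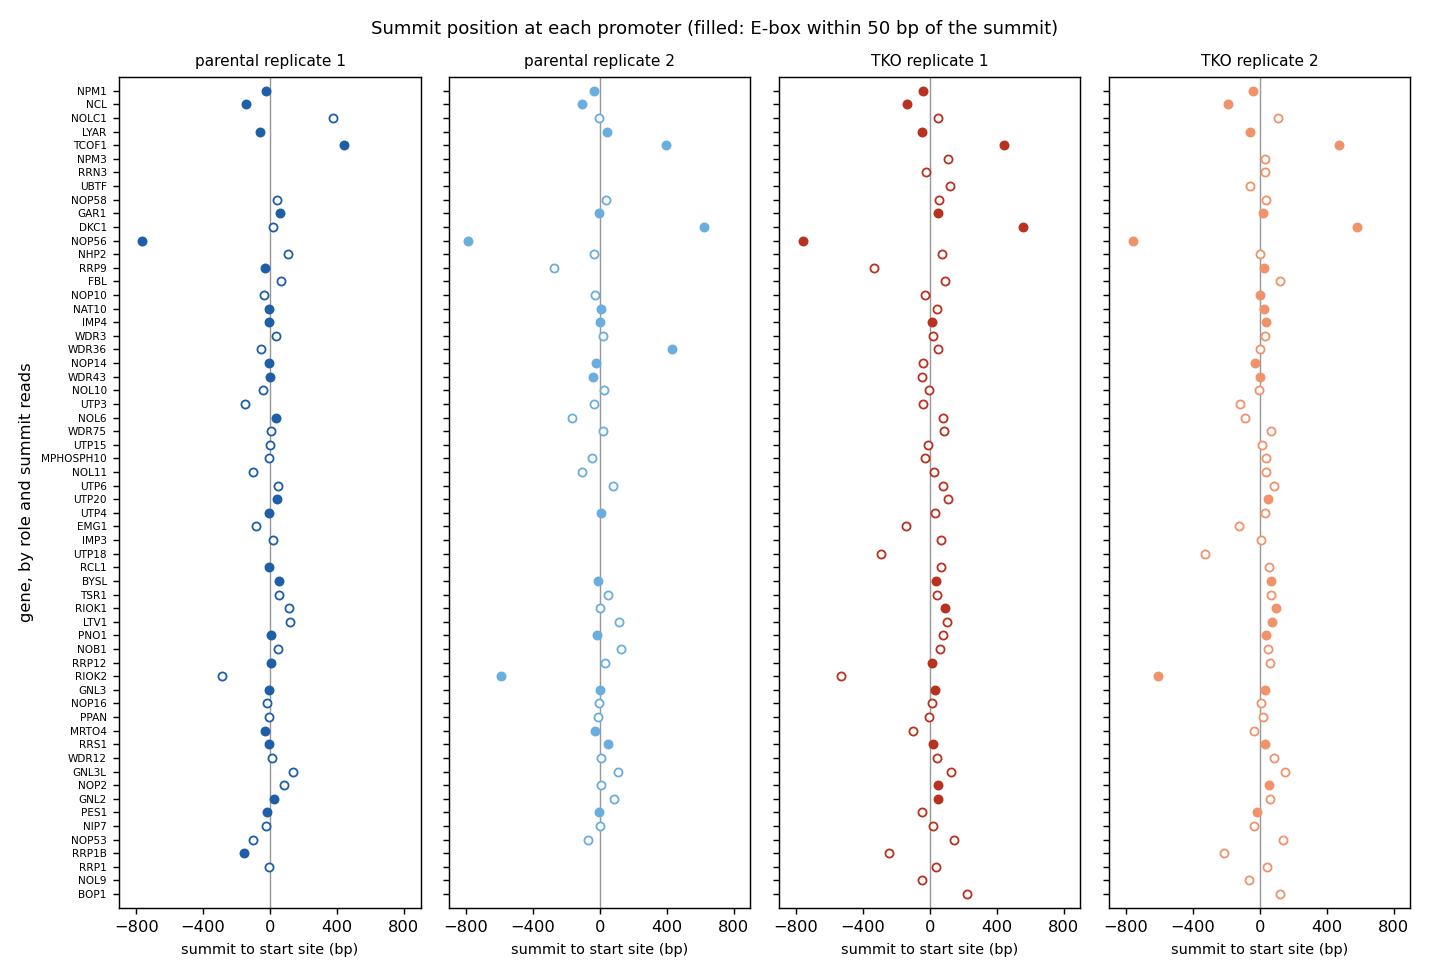
Distance of the strongest promoter summit from the nearest start site (horizontal axis, bp, negative upstream) for each gene (vertical axis, ordered by role and TKO summit reads) in the 4 libraries. Filled points have an E-box within 50 bp of the summit. Most points lie within 100 bp of the start site, NOP56 stays between 756 and 786 bp upstream and TCOF1 between 393 and 472 bp downstream in all 4 libraries.

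E-boxes were common under these summits. CACGTG, which reads the same on both strands, lay within 50 bp of the summit at 24 of 54 genes (44.4%, exact Clopper-Pearson 95% interval 30.9% to 58.6%) in parental replicate 1 and at 20 of 46 (43.5%, 28.9% to 58.9%) in parental replicate 2. All promoter peaks had one in 21.6% and 18.5% of cases. In TKO the counts were 15 of 60 (25%, 14.7% to 37.9%) in replicate 1 and 23 of 60 (38.3%, 26.1% to 51.8%) in replicate 2, against 9.14% and 8.09% of all promoter peaks. Windows of the same length 1 kb to either side of these summits held one in 0.833% to 3.33% of cases. The share was 12.3 percentage points lower in TKO (exact permutation p = 0.333), which was about the gap between the TKO replicates. Without TKO replicate 1 the difference was -5.63 points and without TKO replicate 2 it was -18.96, and a motif window of 100 bp gave -5.21. Among the 46 genes bound in every library the shares were 45.7% and 43.5% in the parental line and 32.6% and 47.8% in TKO, so that the ranges overlapped.

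The lower share in TKO replicate 1 went with the position of the summit. All 24 genes with an E-box at the summit in parental replicate 1 had that same E-box inside the TKO replicate 1 peak, but only 12 of them had it within 50 bp of that summit. In TKO replicate 2 it was inside the peak in 24 and near the summit in 17. Counted anywhere in the peak, which is wider in TKO, 32 of 54 and 30 of 46 genes in the parental line and 43 of 60 in each TKO library had an E-box. These are 59.3%, 65.2% and 71.7%, where 32.6% and 30.8% of all promoter peaks had one in the parental line and 23.2% and 21.9% in TKO.

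**Figure D5:**
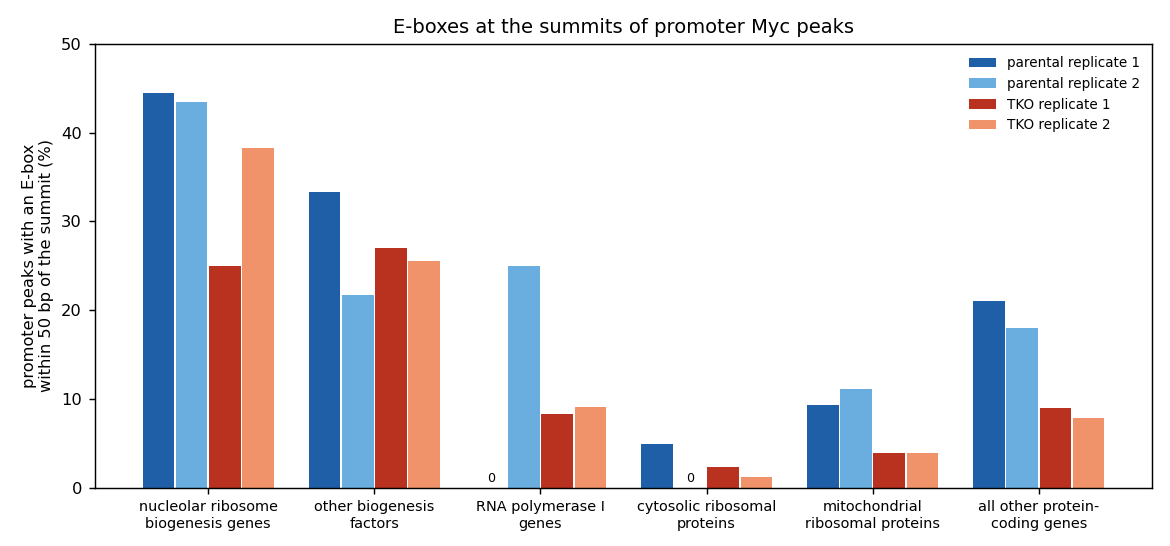
Percentage of promoter peaks with CACGTG within 50 bp of the summit (vertical axis) in each library (bars) for the 60 genes and 5 other lists (horizontal axis). The 60 genes stand between 25% and 44.4%, the cytosolic ribosomal protein genes between 0% and 4.94%.

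By fold, genes with an E-box at every summit ranked highest. The 10 genes with one in every library had median percentiles of 96.3 and 95.3 in the parental line and 99.2 and 99.3 in TKO. The 29 genes without one in any library where they were bound had medians of 66.3 and 77.4 in the parental line and 96.2 and 95.1 in TKO. The 21 genes with one in some libraries stood at 80.8 and 78.8, then 98.01 and 98.06. By reads the contrast was smaller in the parental line, with medians of 2.138 and 2.096 RPM for the 10 and 1.67 and 2.05 for the 29, while in TKO they were 5.72 and 6.79 against 3.81 and 3.91. An E-box at the summit in every library requires a peak in every library, so the 10 were bound in all of them by definition. Of the 21 genes 18 were bound in every library, and of the 29 also 18. All 6 genes without a parental peak were among these 29. NOP16 and NOP58, among the 10 highest in the parental line, were exceptions with none at any summit. NOP16 had instead CACGAG, a variant of the E-box, 4 bp downstream of a start site and within 50 bp of all 4 summits. It is shown in capitals to contrast with the canonical sites.
NOP16, chr5:175815581-175815610: aggagtttgttaCACGAGgtctgagagaca

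Variants of the E-box were counted too, on both strands: CATGTG as well as CATGCG, further CACGCG, also CACGAG plus the longer CAACGTG. With these or CACGTG, 74.1% and 65.2% of the bound genes had a motif at the summit in the parental line and 60% and 65% in TKO. All promoter peaks had one in 51.1% and 46.2% of cases in the parental line and in 30.6% and 27.5% in TKO.

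The promoters themselves had features in common that were read from sequence and annotation alone. At least 1 E-box lay within 1 kb of a basic start site in 45 of the 60 genes (75%), compared with 35.7% of all protein-coding genes and 59.7% of the other genes bound in every library. NCL had the most, 5. A second gene on the opposite strand started within 1 kb upstream of 24 of the 60 (40%), against 12.7% of all genes and 32.2% of the others bound in every library. Examples were GNL3 with PBRM1, WDR12 with CARF, PES1 with TCN2 and BOP1 with HSF1, at 103, 29, 69 and 191 bp. A peak at such a site cannot be assigned to one of the neighbours. Small nucleolar RNAs, the guides of the snoRNPs, were encoded within 10 of the 60 genes (16.7%). The share was 2.098% of all genes and 5.51% of the others bound in every library. GNL3 held 5 and NOP58 4 of the 26 in total. All 10 host genes were bound in every library, as were 76.7% of the 60 genes and 9.32% of all genes. Median GC content within 250 bp of the start site was 62.4% for the 60 genes and 63.7% for all genes.

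Other genes of the pathway were bound nearly as completely in TKO but less so in the parental line. Of 90 further ribosome biogenesis factors, 60 (66.7%) had a promoter peak in each parental library, and 89 and 90 had one in TKO. TSR3, an enzyme that modifies 18S rRNA, was the gene missing from TKO replicate 1. In every library 55 of the 90 were bound (61.1%), and 24 (26.7%) were bound in both TKO and no parental library, where 10% of the 60 genes and 29.8% of all genes were. Their median percentile was 69.0 and 61.8 in the parental line and 92.4 and 91.5 in TKO. The RNA helicase gene DDX21, at 99.2 and 99.6 in the parental line and 99.7 and 99.7 in TKO, and NLE1, a 60S assembly factor at 99.01 and 99.1 and then 99.91 and 99.7, stood as high as the best of the 60.

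Cytosolic ribosomal protein genes, whose products meet the rRNA in the same particles, were also widely bound and of high rank, but few of their summits held an E-box. These genes were picked by symbol alone, so the 88 may include paralogues and like-named genes that are not ribosomal proteins. They were bound in 92.0% and 85.2% of 88 cases in the parental line and in 95.5% of cases in both TKO libraries. Their median percentiles were 80.5 and 83.1 in the parental line and 98.1 and 98.1 in TKO. Their summits, however, held an E-box in 4.94% and 0% of cases in the parental line and in 2.38% and 1.19% in TKO. Mitochondrial ribosomal protein genes were bound in 41.0% and 34.6% of 78 cases in the parental line and 98.7% in both TKO libraries, and 50.0% of them were bound in both TKO and no parental library. Of 12 RNA polymerase I subunit and selectivity factor genes, 9 and 8 were bound in the parental line and 12 and 11 in TKO.

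Beyond the promoter the 60 genes had few peaks in the parental line and about the share of all genes in TKO. A summit between 1 and 10 kb from a start site was listed near 1 and 2 of them in the parental libraries and near 16 and 15 in TKO. These shares, 1.67% and 3.33% in the parental line and 26.7% and 25% in TKO, compare with 4.34%, 6.68%, 24.8% and 25.1% for all protein-coding genes.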

How the data were processed

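Single-end 50-cycle reads of 4 Myc ChIP-seq libraries had been aligned to hg19 with Novoalign 3.08.02, and peaks called per library with MACS2 2.1.1.20160309 against input, per the submitters' processing notes and the methods. Each list deposited by the authors gives a summit position, a fold enrichment (ratio of summit reads to local background), −log10 p-value, −log10 q-value and a score; how duplicates were handled is not given in the sources used here. Whole summit reads were recovered by solving fold and p together, and matched 100% of peaks within 0.002 on the −log10 scale (10.6% to 12.6% of 500 peaks at 0.9 times the fitted scale). Depth assumes a genome of 2700000000 bases.

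Start sites were those of basic protein-coding transcripts in GENCODE v44 lifted to GRCh37. The peak of highest fold within 1 kb stood for a gene, and its percentile was taken in its own list. Motifs were searched within 50 bp of the summit. The assignment of peaks and the recovery of reads were tested on simulated data. Between the lines, values per library were set against each other in an exact two-sided permutation test (SciPy 1.17.1), and lists were described by counts beside those of all genes. Members, gene lists and comparisons were chosen with earlier results of these data known. Genes named with values were the 10 of highest parental percentile among those bound in every library, those bound only in TKO, those with an E-box at every summit, 11 hub genes of the pathway, and the largest and smallest read ratio; others were named after their values were seen. Alternatives were TSS windows of 500 bp and 3 kb, other start sites, thresholds, rankings and motifs, lists of equal length and leaving out each library. Input samples had no file analysed here.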

Additional observations from a re-analysis of the deposited data

How the results depend on the processing

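Of 76 recalculated values under alternatives other than leaving out a library, 67 moved by less than the spread between replicates (counts of genes, by less than 1.5 times) and none changed direction. With only peaks of at least 5-fold enrichment, the ratio of bound genes rose from 1.2 to 1.48, 13 genes in place of 6 were bound only in TKO and 34 in place of 46 were bound in both parental libraries. With equal numbers of peaks by fold the ratio was 1.04, 2 genes were bound only in TKO and the percentile difference was 8.78 points over 39 genes. By −log10 p the last values were 3 genes and 9.13 points, over 43 genes. Fewer TKO peaks enter both by construction. Ranking by −log10 p gave a percentile difference of 7.40 points, whose cause was not tested, and scaling by extension length a read ratio of 1.91. Leaving out each library in turn gave 6 to 14 genes bound only in TKO, with 14 without parental replicate 1, read ratios of 2.44 to 2.74, E-box differences of -18.96 to -5.63 points and offset differences of 4.75 to 12.25 bp. The read ratio of 2.74 and the offset difference of 12.25 bp came without parental replicate 2 and rest on the 54 genes bound in the remaining libraries. The other alternatives put the E-box difference between -18.97 and -4.35 points, the extremes being peaks of at least 5-fold and genes bound in every library. Numbers 1 and 2 are shared by the lines but mark no common batch in the labels, and deviations of same-numbered libraries correlated at 0.0227 over 46 genes. With replicate as a block, the ratio of bound genes was 1.21, the read ratio 2.53 and the width ratio 2.40. The percentile difference of 15.8 points, the E-box difference of -12.3 points and the offset difference of 8.25 bp cannot change under such a block by construction. They are nevertheless counted among the 67 values above. Groups of 2 libraries cannot pass an exact permutation test, and summits of 14 to 24 reads, as at UBTF, BOP1 and RCL1, carry the widest counting error.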
